A study of Komagataella pastoris with 6 samples.

Results

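The 4 genes described here are the P. pastoris genes for protein folding in the endoplasmic reticulum (ER) that are named KAR2 (PAS_chr2-1_0140), PDI1 (PAS_chr4_0844), ERO1 (PAS_chr1-1_0011) and HAC1 (PAS_chr1-1_0381). They were chosen by identifier, not by their values, though earlier results of these data were known. They are 4 of the 5040 genes in the read count table. The table itself holds identifiers without names. Messenger RNA of the flocculating strain KM71-ScFlo1-LpDLDH (3 cultures) was compared with that of KM71-LpDLDH (3 cultures), the control. Both strains derive from P. pastoris KM71 and carry LpDLDH, a d-lactate dehydrogenase gene of Leuconostoc pseudomesenteroides behind the constitutive glyceraldehyde-3-phosphate dehydrogenase promoter. KM71-ScFlo1-LpDLDH also carries ScFLO1, a flocculation gene of S. cerevisiae, behind the same kind of promoter on a plasmid with a HIS4 marker. Effects of ScFLO1, of that plasmid and of any other difference between the isolates cannot be told apart here. The cultures grew from an OD600 of 0.05 in glycerol minimal medium supplied with histidine (MGYH) and were sampled in mid-exponential phase after about 21 h at 30 °C and 250 rpm.

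Flocculins such as Flo1 are secreted proteins that end up in the cell wall and bind sugars on neighbouring cells. On their way out they pass through the ER, where proteins fold, receive disulfide bonds and are glycosylated. When unfolded proteins build up there, yeast cells start the unfolded protein response. In S. cerevisiae, the ER membrane sensor Ire1 splices the mRNA of HAC1, and the Hac1 protein made from the spliced mRNA activates genes of the folding machinery, among them KAR2, PDI1 and ERO1. The comparison asked whether making ScFlo1 went with higher transcript levels of this response. Reads were counted per gene, so spliced and unspliced HAC1 mRNA were not told apart.

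The libraries held between 10386352 and 12767753 reads on genes. Replicate 3 of KM71-ScFlo1-LpDLDH stood furthest apart. Its counts differed from those of replicates 1 and 2 by a chi-square per degree of freedom of 68.1 and 31.0, against 11.9 between replicates 1 and 2 and 16.1 to 20.1 between the replicates of KM71-LpDLDH. Fold changes of KAR2, ERO1 and HAC1 are therefore also given without that library, which changed the call of KAR2 alone. No row stood for ScFLO1 or LpDLDH, as 0 identifiers lacked the prefix of the P. pastoris genes, so the strain labels were not checked by their transgenes. Levels are given as CPM, the reads of a gene relative to the TMM-scaled total of its library. Strains were compared by the edgeR quasi-likelihood test, and a gene was called where its p, adjusted by Benjamini-Hochberg over the 5029 genes tested, was under 0.05. All 4 of the ER folding genes were tested.

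PDI1 transcripts were higher in the flocculating strain, whereas HAC1 and ERO1 transcripts were lower and KAR2 was not called. PDI1 rose 1.69-fold, HAC1 fell to a 1.41-fold lower level and ERO1 to a 1.27-fold lower level. KAR2 had a 1.28-fold lower fitted level that did not pass the test. In bulk RNA, a change in the RNA of every cell and a change in the share of cells with high levels cannot be told apart. Thus 3 of the 4 genes were called, 1 higher and 2 lower. In the same comparison 64.2% of all tested genes were called, 32.6% higher and 31.5% lower, so 3 of 4 was close to the background. No ER folding gene passed a fold change of 2, the cut-off of the methods, which 16.4% of all tested genes passed together with the adjusted p (8.41% higher and 7.99% lower). In PDI1 and HAC1, 2 of the 4, the libraries of the strains did not overlap, and the same was seen in 68.9% of all tested genes.

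HAC1 encodes the transcription factor of the unfolded protein response. Its levels were 897, 820.0 and 884 CPM in replicates 1, 2 and 3 of KM71-LpDLDH. In KM71-ScFlo1-LpDLDH they were 520.0, 588 and 742 CPM. Every flocculating culture lay below every control culture, a pattern shown by 33.6% of all tested genes. The means were 867 ± 41.3 CPM (SD, n = 3) and 617 ± 114 CPM (SD, n = 3). On the log2 scale the difference was -0.49 (SE 0.16), with an adjusted p of 0.00699 in the edgeR fit. The 95% interval from limma, which unlike the SE draws on variances of all genes, ran from -0.79 to -0.23. HAC1 stayed called under every alternative run, with adjusted p-values from 0.000117 to 0.0325, and its log2 difference was -0.65 without replicate 3 of KM71-ScFlo1-LpDLDH.

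KAR2 encodes the Hsp70 chaperone of the ER lumen, known as BiP in animals, which binds nascent and unfolded proteins. Its levels were 3529, 3398 and 4404 CPM in replicates 1, 2 and 3 of KM71-LpDLDH. The flocculating cultures had 2407, 2741 and 3684 CPM. Replicate 3 was the highest library in each strain, and in KM71-ScFlo1-LpDLDH it exceeded 2 of the 3 control libraries, so the strains overlapped. The means were 3777 ± 547 CPM (SD, n = 3) and 2944 ± 662 CPM (SD, n = 3). The log2 difference was -0.36 (SE 0.22), with an adjusted p of 0.0884 in the edgeR fit. The 95% interval from limma, from -0.76 to 0.02, included 0.

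The KAR2 call turned on the choice of test and on 1 library. DESeq2, the tool named in the methods, gave a log2 fold change of -0.37 and an adjusted p of 0.0385, while the adjusted p-values over all alternatives ranged from 0.00282 to 0.336. Without replicate 3 of KM71-ScFlo1-LpDLDH, KAR2 fell by 0.56 on the log2 scale (adjusted p = 0.00282, edgeR). The remaining flocculating cultures then averaged 2573 ± 242 CPM (SD, n = 2), below every control library, as for 38% of all tested genes with that library left out. Without replicate 3 of KM71-LpDLDH the log2 fold change shrank to -0.23 (adjusted p = 0.336, edgeR), and without replicate 1 of KM71-ScFlo1-LpDLDH it was also -0.23 (adjusted p = 0.222).

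**Figure D1:**
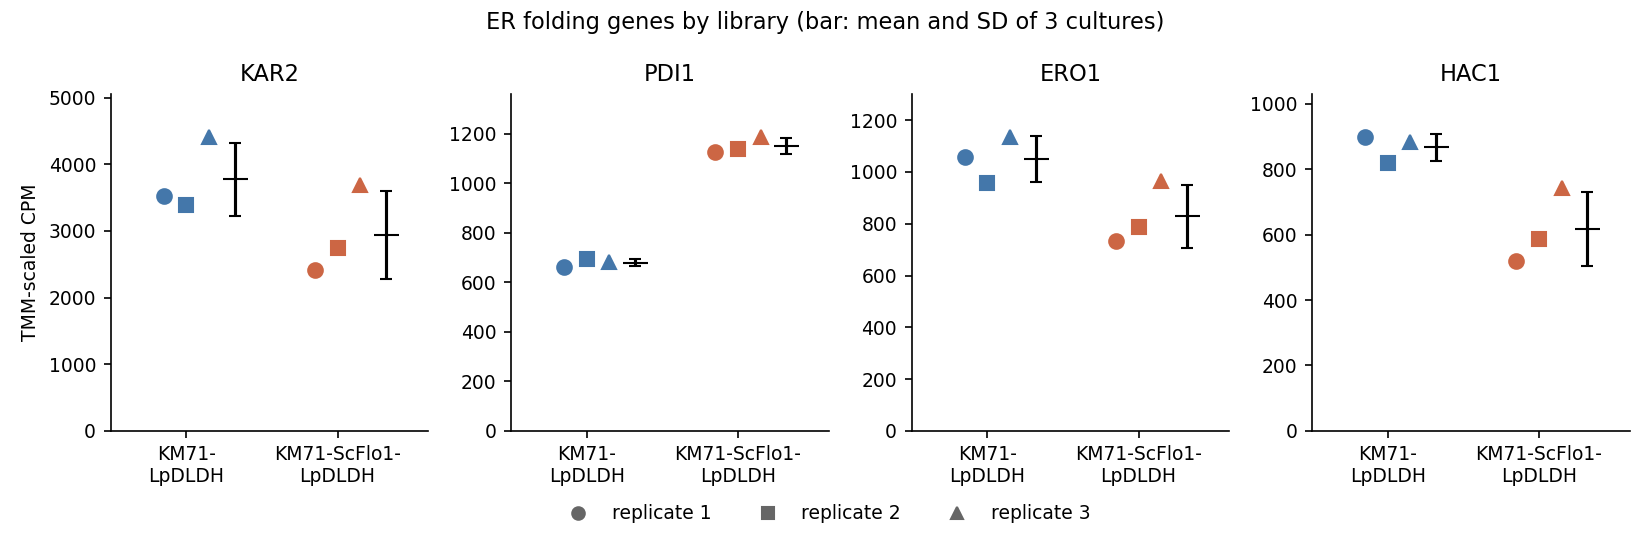
Levels of KAR2, PDI1, ERO1 and HAC1 in TMM-scaled CPM for each library, with symbols for replicates 1 to 3 and a black bar for the mean and SD of the 3 cultures of a strain. PDI1 lies between 1126 and 1185 CPM in KM71-ScFlo1-LpDLDH against 664 to 694 CPM in KM71-LpDLDH. The other genes have lower means in KM71-ScFlo1-LpDLDH and a wide spread there, with replicate 3 the highest.

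ERO1 and PDI1 work as a pair in forming disulfide bonds. Protein disulfide isomerase, the product of PDI1, passes disulfides to folding proteins and rearranges wrong ones, and the thiol oxidase Ero1 reoxidises it. Transcripts of these partners differed between the strains in opposite directions. The fall of ERO1 was less certain, since its libraries overlapped between the strains.

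PDI1 had 664, 694 and 682 CPM in replicates 1, 2 and 3 of KM71-LpDLDH. In KM71-ScFlo1-LpDLDH it had 1126, 1139.6 and 1185 CPM. Every flocculating culture was above every control culture, as for 35.3% of all tested genes, and the gap between the strains far exceeded the spread within either. The means were 679.9 ± 15.3 CPM (SD, n = 3) and 1150.2 ± 31.0 CPM (SD, n = 3). The log2 difference was 0.76 (SE 0.03), with an adjusted p of 3.16e-05 in the edgeR fit and a 95% interval from limma of 0.58 to 0.94. Under the alternatives the log2 fold change stayed between 0.73 and 0.86 and PDI1 was always called.

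ERO1 had 1058, 956 and 1133 CPM in replicates 1, 2 and 3 of KM71-LpDLDH. The flocculating cultures had 733, 786 and 967 CPM. The strains overlapped by 1 library on each side, since replicate 3 of KM71-ScFlo1-LpDLDH lay just above replicate 2 of KM71-LpDLDH. The means were 1049 ± 89.0 CPM (SD, n = 3) and 829 ± 123 CPM (SD, n = 3). The log2 difference was -0.34 (SE 0.14), with an adjusted p of 0.0322 in the edgeR fit and a 95% interval from limma of -0.61 to -0.08. The call was lost under 5 of the 15 alternatives. The adjusted p was 0.0597 with total-count scaling, and it rose to 0.0855 and 0.130 without replicate 1 or 3 of KM71-LpDLDH and to 0.0915 and 0.117 without replicate 1 or 2 of KM71-ScFlo1-LpDLDH. Without replicate 3 of KM71-ScFlo1-LpDLDH the log2 fold change was -0.47 with an adjusted p of 0.00152.

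With that library left out, all 4 of the genes were called, PDI1 higher and the other 3 lower, where 65.4% of all tested genes were called and 32.2% were called lower. It was the highest flocculating library of KAR2, ERO1 and HAC1, so leaving it out deepens their falls by itself. Without replicate 2 of KM71-LpDLDH 3 of the 4 genes were called, and without any other single library 2. Over the 6 fits with 1 library left out, 2762 to 3290 of all tested genes were called. In none of the fits with 1 library left out did KAR2, ERO1 or HAC1 have a positive log2 fold change or PDI1 a negative one.

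**Figure D2:**
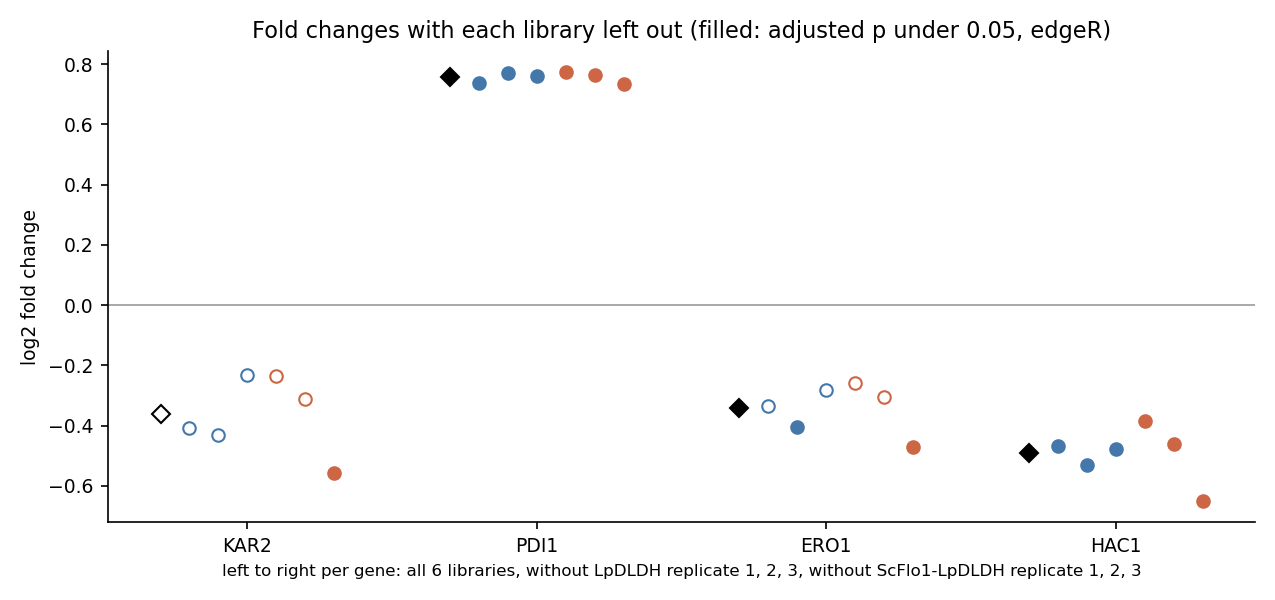
Log2 fold change (KM71-ScFlo1-LpDLDH over KM71-LpDLDH) of each gene with all 6 libraries (diamonds) and with 1 library left out (circles, blue for a KM71-LpDLDH and orange for a KM71-ScFlo1-LpDLDH library). Filled symbols passed the edgeR test at an adjusted p under 0.05. PDI1 stays between 0.73 and 0.77 and HAC1 between -0.65 and -0.38, all filled, whereas KAR2 is filled only without replicate 3 of KM71-ScFlo1-LpDLDH and ERO1 changes sides.

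The sizes of these differences were moderate among all genes. PDI1 ranked 680 among the rises, and 25.5% of tested genes had a log2 fold change at least as far from 0. HAC1 ranked 1032 among the falls, KAR2 1327 and ERO1 1381. For KAR2 and ERO1, 54.9% and 56.8% of tested genes differed at least as much between the strains. The median absolute log2 fold change was 0.43 over the 4 genes and 0.41 over all tested genes. The median signed value was -0.35 over the 4 genes and 0.02 over all tested genes.

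**Figure D3:**
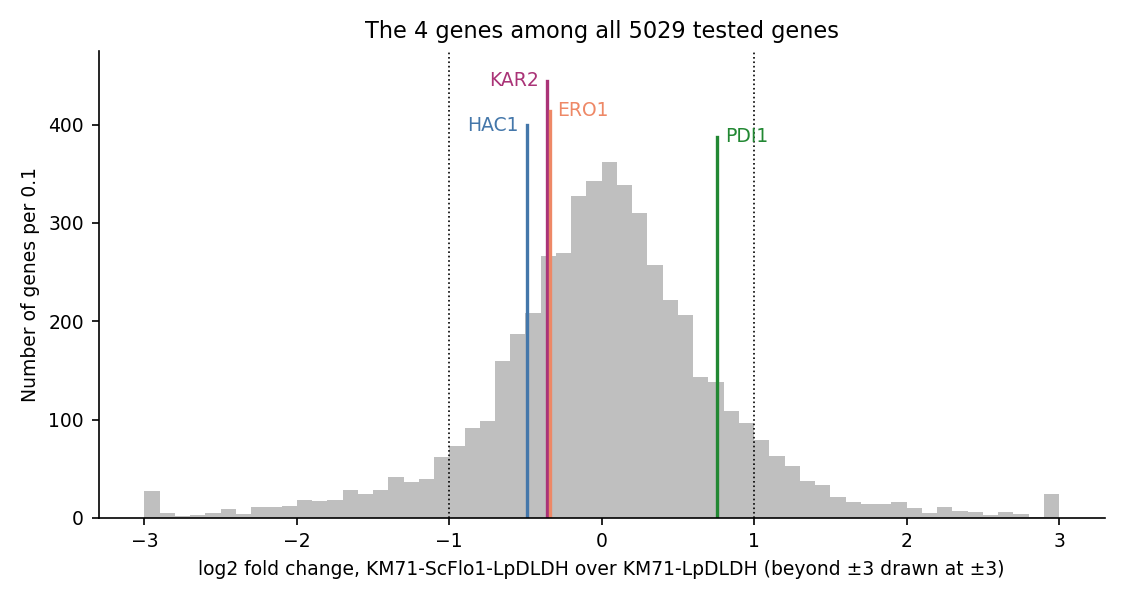
Histogram of the log2 fold changes of all 5029 tested genes in steps of 0.1, with coloured lines for the 4 ER folding genes and dotted lines at the fold change cut-off of 2. HAC1 (-0.49), KAR2 (-0.36) and ERO1 (-0.34) lie close together on the lower side, PDI1 (0.76) lies on the higher side, and none reaches the dotted lines.

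Ratios of reads within a library do not depend on how libraries are scaled. They restate the differences above without that scaling and are not separate support for them. KAR2 had 5.32, 4.90 and 6.45 reads per PDI1 read in replicates 1, 2 and 3 of KM71-LpDLDH. In KM71-ScFlo1-LpDLDH it had 2.14, 2.40 and 3.11. The ratio of KAR2 to PDI1 was thus 2.19-fold lower in the flocculating strain (a log2 difference of -1.13, standard error 0.20), with no overlap between the strains. Against ERO1, PDI1 had 0.627, 0.726 and 0.602 reads per read in the control cultures and 1.54, 1.45 and 1.23 in the flocculating cultures, a 2.15-fold higher ratio. Against HAC1 the ratio of PDI1 was 2.40-fold higher. Each of these 3 differences reached p = 0.1 in a two-sided exact permutation test, the smallest value that 3 cultures against 3 allow. After Benjamini-Hochberg adjustment over the 6 pairs, the p of that test was 0.15 for each. Ratios of other pairs of genes were not examined, so how common such differences are was not tested. Among single tested genes, 68.9% had no overlap between the strains.

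The ratios among the other 3 genes differed less between the strains. KAR2 had 3.34, 3.55 and 3.89 reads per ERO1 read in replicates 1, 2 and 3 of KM71-LpDLDH. In KM71-ScFlo1-LpDLDH the ratio was 3.29, 3.49 and 3.81. The strains overlapped, with a log2 difference of -0.03 (standard error 0.09, exact permutation p = 0.7). KAR2 to HAC1 differed by 0.13 (standard error 0.11, exact permutation p = 0.4), also with overlap. ERO1 to HAC1 differed by 0.16 (standard error 0.05), a 1.12-fold higher ratio without overlap. Its exact permutation p was 0.1 and its adjusted p 0.15, the same as for the pairs with PDI1. These p-values do not show that the ratios were equal.

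**Figure D4:**
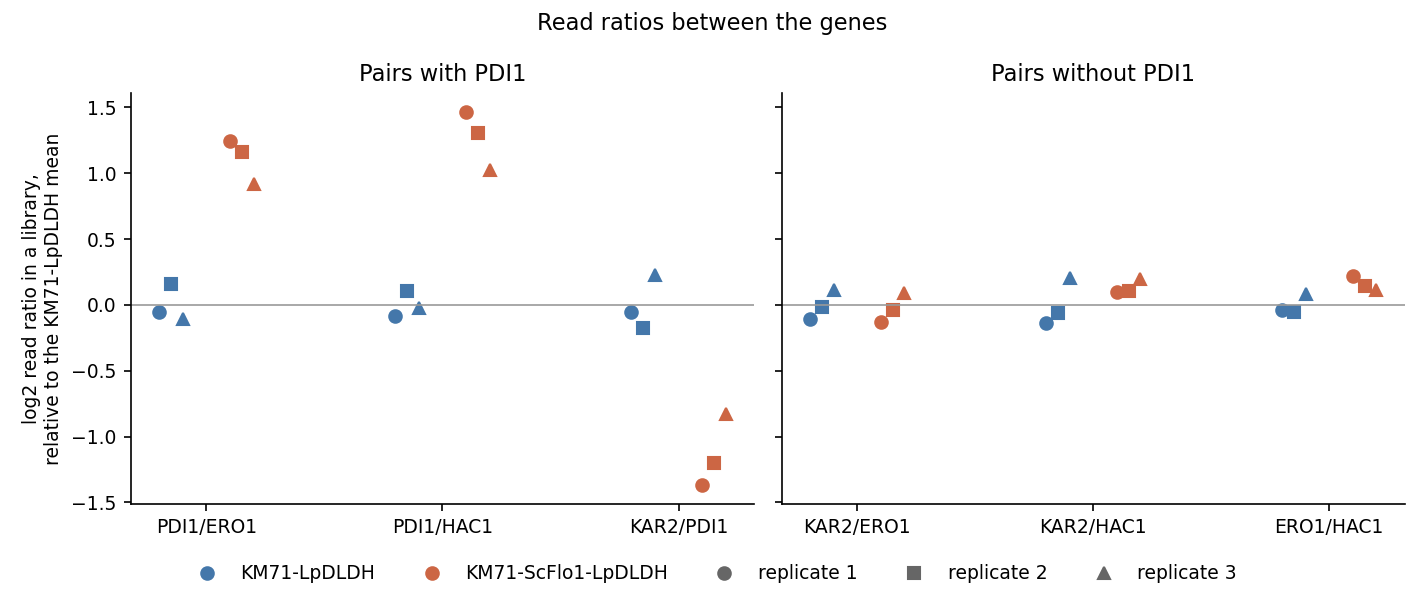
Log2 read ratio of each pair of genes in each library, drawn relative to its mean in KM71-LpDLDH (horizontal line at 0), blue for KM71-LpDLDH and orange for KM71-ScFlo1-LpDLDH, with symbols for replicates. The 3 pairs with PDI1 differ by 1.11 to 1.26 on the log2 scale in size between the strain means, and the 3 pairs without it by at most 0.16.

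The genes also differed in how far cultures of the same strain varied. In KM71-ScFlo1-LpDLDH the coefficient of variation was 22.5% for KAR2, 18.4% for HAC1 and 14.8% for ERO1, against a median of 7.92% over all tested genes. Only 5.25% of tested genes varied as much as KAR2 there. PDI1, with 2.69%, was among the 10.0% of genes that varied least. For KAR2, HAC1 and ERO1 there, replicate 3, the library that stood furthest apart, also lay furthest from the strain mean. Leaving it out therefore narrows their spread by itself. Without it, KAR2 had 2573 ± 242 CPM (SD, n = 2). HAC1 then had 554 ± 49.5 CPM and ERO1 759 ± 39.1 CPM (SD, n = 2). The spread of all tested genes without that library is not given, so these values have no background. In KM71-LpDLDH the coefficients were 14.5% for KAR2, 8.49% for ERO1, 4.76% for HAC1 and 2.24% for PDI1, with a median of 7.69% over all tested genes. In the flocculating strain, KAR2, ERO1 and HAC1 were lowest in replicate 1 and highest in replicate 3, an order shared by 27.3% of tested genes. PDI1 had that order with TMM scaling, but the reverse with total-count scaling (1209, 1190.4 and 1178 CPM of the unscaled library totals in replicates 1, 2 and 3). Each library held at least 6816 reads of each of the 4 genes, which leaves a relative counting error of at most 1.21%.

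Summed over the 4 genes, reads made up 0.590%, 0.582% and 0.668% of replicates 1, 2 and 3 of KM71-LpDLDH. In KM71-ScFlo1-LpDLDH they made up 0.514%, 0.549% and 0.654%. The shares overlapped.

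Genes whose pattern over the 6 libraries was closest were found by Pearson's r of log2 CPM, given as a description. For KAR2 it was PAS_chr4_0552 (r = 0.992), with means of 5434 CPM in KM71-LpDLDH and 4297 CPM in KM71-ScFlo1-LpDLDH and, like KAR2, not called (adjusted p = 0.101, edgeR). For ERO1 it was PAS_chr4_0452 (r = 0.996), which fell by 0.44 on the log2 scale. For HAC1 it was PAS_chr2-1_0801 (r = 0.999), which fell by 0.67. For PDI1 it was PAS_chr1-4_0054 (r = 0.9998), which rose from 125 to 351 CPM. No table used here names these 4 genes. An r above 0.9 with PDI1 was shown by 23.7% of the other tested genes, but with KAR2 by 2.07%, with ERO1 by 5.33% and with HAC1 by 8.86%. All these libraries share the strain difference.

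Reads of a neighbouring gene can be counted on a gene that overlaps it, so the genes with adjacent identifier numbers were examined. Both neighbours of KAR2 had log2 fold changes near 0, 0.01 and -0.08. The gene numbered before PDI1 rose by 0.72 on the log2 scale (adjusted p = 0.00138, edgeR), and its reads came to at most 10.0% of those of PDI1 in a library. The gene numbered after PDI1 was not called, with a log2 difference of 0.09 (adjusted p = 0.553). The gene numbered before ERO1 fell by 0.45 (adjusted p = 0.00162) and held 16.4% to 19.2% as many reads as ERO1. The gene numbered after ERO1 was not called, with a log2 difference of 0.18 (adjusted p = 0.230). The gene numbered after HAC1 rose by 1.29 (adjusted p = 5.37e-06), opposite to HAC1, and held 8.67% to 45.8% as many reads. This share differed between the strains. The neighbour averaged 88.8 CPM in KM71-LpDLDH and 216 CPM in KM71-ScFlo1-LpDLDH, against 867 and 617 CPM for HAC1. No identifier with the number before HAC1 was among the genes counted. Gene positions and the strand of the reads were not analysed here, and the part of neighbouring reads in these differences was not tested.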

How the data were processed

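The members and the lists were chosen with earlier results of these data known. According to the methods, the authors cleaned reads of 150 nt with fastp, aligned them by HISAT2 against the genome of P. pastoris GS115 and obtained counts per gene from HTSeq-count. Versions and strand setting: not given in the sources used here. Though the deposited table is named as normalized, it holds whole-number counts whose library totals differ and whose DESeq2 size factors ranged from 0.871 to 1.15, and it was used as raw counts. Table columns of no sample numbered 0. Replicates are triplicate cultures by the methods.

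Genes averaging 10 reads or more were kept (5029, with 11 left out), scaled by TMM and tested with edgeR 4.0.16 (prior count 0.125). Alternatives used limma 3.58.1 and DESeq2 1.42.0, all under R 4.3.3. The tests were checked on simulated data. Standard errors and correlations came from log2 CPM with a prior count of 2. Intervals of fold changes came from limma at 95%, with variances moderated over all genes. Each standard error rested on the spread of that gene alone, so it is not the same measure of uncertainty. Within-library read ratios were compared by exact permutation. Other alternatives were library scaling, filters, prior counts, each library left out, and a block for the replicate number. The rule for named genes took the 4 genes, the 3 most alike in pattern to each, of which the closest is printed, and the genes with adjacent identifier numbers. Pathway lists (91 S. cerevisiae symbols in 10 lists) were planned but not used, since 0 identifiers matched the reference table, which is for another assembly. For that reason no sequences, lengths or positions are given. Reads were not corrected for gene length, so ratios and shares of reads between genes are not ratios of transcript levels.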

Additional observations from a re-analysis of the deposited data

How the results depend on the processing

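Under the 15 alternatives run for each gene, PDI1 and HAC1 kept their direction and stayed called. KAR2 and ERO1 kept their direction but not their side of the threshold. KAR2 was called with DESeq2 (log2 fold change -0.37, adjusted p = 0.0385) and with the replicate number as a block (-0.37, adjusted p = 0.0298 from edgeR). The numbers were not taken to pair cultures, since the correlation of same-numbered deviations was -0.13, 0.05 and 0.11, and the block moved the count of all called genes only from 3227 to 3141. ERO1 was not called with total-count scaling (-0.24). That scaling moved the median of all genes from 0.02 to 0.13. Relative to the median, it gave -0.39 for KAR2, -0.37 for ERO1, -0.52 for HAC1 and 0.73 for PDI1, against -0.38, -0.36, -0.52 and 0.73 with TMM. With each library left out in turn, log2 fold changes ranged from -0.56 to -0.23 for KAR2 and from -0.47 to -0.26 for ERO1. The difference between the strains in the log2 ratio KAR2/ERO1 ranged from -0.083 to 0.032 and so changed sign. For the other 5 pairs this difference kept its sign. The cause of these changes was not tested. Depth does not limit the 4 genes, but 3 cultures per strain limit what can be said of KAR2 and ERO1.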
